A study of Homo sapiens with 4 samples.

Results

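HERV-H is a family of endogenous retroviruses, the inherited remains of germline infections. A full copy holds an internal region, named HERVH in the repeat annotation, between 2 long terminal repeats (LTRs), which carry the promoter. Most copies are incomplete, and solo LTRs without an internal region are common. The LTRs belong to the subfamilies LTR7, LTR7B, LTR7C and LTR7Y. HERV-H is best known from human pluripotent stem cells and early embryos, where many copies are transcribed, and LTR7 elements have also been found active in colorectal tumours.

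The elements described here are the rows of the deposited table of transposable element (TE) counts whose family name begins with LTR7 or HERVH. They comprised 2005 loci of the 261609 in that table, in 13 of its 655 families. Of these, 1687 loci were HERV-H proper, with 1300 HERVH internal loci and 387 LTR loci (242 LTR7, 52 LTR7C, 85 LTR7Y and 8 LTR7B). The remaining 318 loci came from 8 repeat families whose names begin alike, namely HERVH48, LTR71A, LTR71B, LTR73, LTR76, LTR78, LTR78B and LTR79. These are not subfamilies of LTR7, and they are described separately near the end. Each locus appears in the table only as a number, with no coordinates or sequence, so no element was placed in the genome and no element sequence is shown.

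The counts come from single-cell RNA sequencing of transcript 5′ ends on the 10x Genomics platform, in H1299, derived from a human non-small cell lung carcinoma, and HCT116, from a human colorectal carcinoma. Each line received either the solvent DMSO or 2 compounds together: DAC (decitabine, 500 nM for 72 h), which inhibits DNA methyltransferases, and SB939 (500 nM for 18 h), which inhibits histone deacetylases. Medium and compounds were replaced every 24 h, and both lines were used between passages 5 and 10. Each of the 4 combinations was 1 library, so no test within a line was possible, none was run across the lines, and all intervals below cover counting error only. They say nothing about the variation between cultures. They also treat counts as independent, although counts gathered in cells, so they are too narrow for the sampling of cells as well. At equal depth per cell, the variance of HERVH counts over cells was 10.9 times the mean in treated HCT116. It was 1.37 times the mean in H1299 DMSO, 1.49 times in H1299 DAC+SB939 and 1.28 times in HCT116 DMSO.

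The libraries held 3578 (H1299 DMSO), 3726 (H1299 DAC+SB939), 3658 (HCT116 DMSO) and 4327 (HCT116 DAC+SB939) cells, and values below follow this order. Summed gene and TE counts lay between 62428673 and 64524196 in 3 libraries and reached 38927267 in treated HCT116, where the median per cell was 8449 against 15784.5 to 17369.5 elsewhere. A barcode of 262 of the 15289 cells also occurred in another library. CPM are counts scaled to a library total of 1000000 gene and TE counts. HCT116 markers (EPCAM, CDH1, CDX2, VIL1, CLDN4, ESRP1, GRHL2, KRT20) summed to 0.356, 14.6, 135 and 74.1 CPM. H1299 markers (VIM, ZEB1, CDH2, FN1, AXL, TWIST1, SNAI2, NNMT) summed to 2541, 1237, 90.3 and 305 CPM. EPCAM gave 5054 of 8475 counts in untreated HCT116, and VIM 147273 of 163931 in untreated H1299. SNAI2 went against its sum, at 0.093, 0.545, 2.86 and 10.4 CPM, and NNMT had 7 and 6 counts in H1299. With treatment, ESRP1 was also higher in H1299 than in HCT116, at 2.92 and 2.41 CPM. ZEB1 was then similar in the lines, at 14.4 and 14.1 CPM. In HCT116 CDH1, VIL1 and KRT20 were higher with treatment, although the sum was lower. The table lists a combination of family and position number, called a class here, from 20 counts upward, and a class missing from a library is neither 0 nor known to be below 20. Of 68 classes among these elements, 26, 38, 28 and 51 were listed, and 14 were listed in all 4 libraries.

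LTR7, the LTR subfamily with most counts, was 6.95-fold (6.11 to 7.92) higher with DAC+SB939 than with DMSO in H1299 and slightly lower with it in HCT116. It had 271, 1821, 6848 and 3701 counts, or 4.20, 29.2, 109.3 and 95.1 CPM. The log2 ratio was 2.80 (2.61 to 2.99) in H1299 and -0.20 (-0.26 to -0.14) in HCT116, a difference of 3.0 (2.81 to 3.19). As a mean over cells, each weighted equally, the HCT116 value was 0.0032, so its sign there depends on the weighting. In CPM of the summed counts, untreated HCT116 had the highest LTR7 level of the 4 libraries and untreated H1299 the lowest. The plot of family levels sets these values beside those of the other subfamilies.

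**Figure D1:**
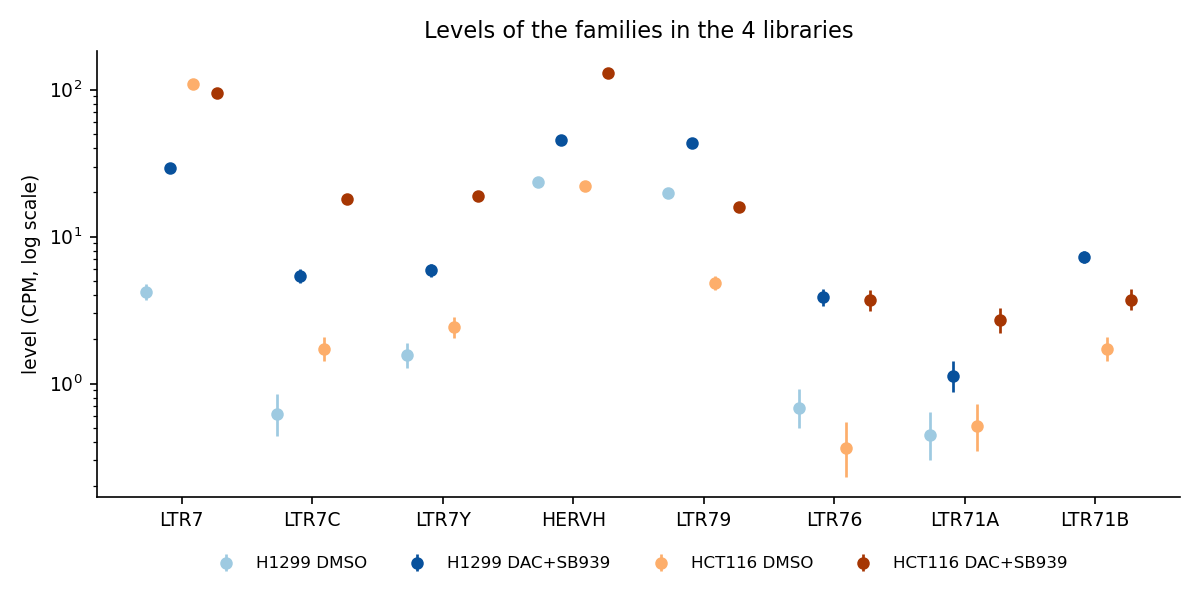
Level in CPM, on a log scale, of 8 families in the 4 libraries, with exact 95% Poisson intervals for counting error; a family is not drawn where it was not listed. LTR7 stands at 109.3 and 95.1 CPM in HCT116 and at 4.20 and 29.2 CPM in H1299, while HERVH is highest in treated HCT116 at 130.3 CPM.

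LTR7C and LTR7Y were higher with DAC+SB939 in both lines. LTR7C had 40, 337, 108 and 700 counts, with log2 ratios of 3.12 in H1299 and 3.38 in HCT116. LTR7Y had 101, 369, 151 and 733 counts, with log2 ratios of 1.92 and 2.97. LTR7B was listed only in untreated H1299, with 45 counts. Of the LTR subfamilies listed in all 4 libraries, LTR7 in HCT116 was the exception to a higher level with treatment.

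Of the 242 LTR7 loci, 2 held 83.4%, 73.2%, 98.3% and 92.3% of LTR7 counts. Locus 168814 had 194, 1273, 3135 and 2605 counts, or 3.01, 20.4, 50.1 and 66.9 CPM. It was higher with DAC+SB939 in both lines, with a log2 ratio of 2.76 in H1299 and 0.42 in HCT116. Locus 5293703 had 32, 60, 3596 and 810 counts, or 0.496, 0.961, 57.4 and 20.8 CPM. It was an HCT116 locus in these libraries, low in H1299, where its log2 ratio was 0.95 (0.31 to 1.62), and lower with treatment in HCT116, where the log2 ratio was -1.46 (-1.58 to -1.35).

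**Figure D2:**
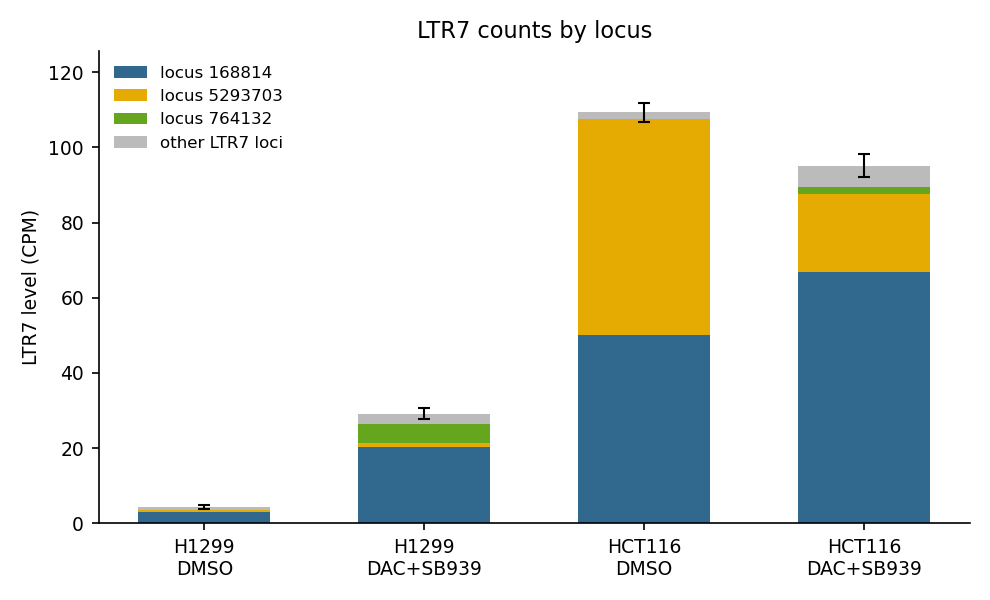
LTR7 level in CPM in each library as stacked bars, split into the 3 LTR7 loci with most counts among those named and all other LTR7 loci; the error bar is the exact 95% Poisson interval of the whole bar. In HCT116 the segment of locus 5293703 shrinks from 57.4 CPM with DMSO to 20.8 CPM with DAC+SB939, while that of locus 168814 goes from 50.1 to 66.9 CPM.

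In untreated HCT116, locus 5293703 held 52.5% of LTR7 counts, and the first 3 loci held 98.5%. In the other libraries locus 168814 led, with 71.6% in H1299 DMSO, 69.9% in H1299 DAC+SB939 and 70.4% in HCT116 DAC+SB939. The effective number of LTR7 loci, which is the number of equally strong loci that would give the same concentration, was 1.85, 1.92, 2.06 and 1.84. In HCT116 the LTR7 total was thus almost entirely that of the 2 loci.

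The opposite direction of LTR7 in the 2 lines depended on locus 5293703. Without that locus LTR7 had 239, 1761, 3252 and 2891 counts, and the log2 ratio was 2.93 in H1299 and 0.52 (0.44 to 0.59) in HCT116. With both leading loci left out, 45, 488, 117 and 286 counts remained, with log2 ratios of 3.49 and 1.98 (1.66 to 2.30). Listing also touched the value of locus 5293703. Its position number 18 had 3285 and 810 counts in HCT116, whereas position number 19 had 311 counts with DMSO and was not listed with DAC+SB939. Over the position listed in both libraries the log2 ratio was -1.33.

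The third LTR7 locus, 764132, had 0, 318, 1 and 64 counts. In treated H1299 it held 17.5% of LTR7 counts, more than locus 5293703 there. Its HCT116 log2 ratio of 6.69 (4.16 to 12.01) rests on 1 count with DMSO. LTR7 locus 5051958 went the other way in H1299, with 31 counts with DMSO and 1 with DAC+SB939, a log2 ratio of -4.91, and it had 2 and 5 counts in HCT116.

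LTR7C and LTR7Y also had few leading loci. LTR7Y locus 1655677 had 87, 148, 133 and 332 counts, which was 86.1%, 40.1%, 88.1% and 45.3% of LTR7Y counts. Its log2 ratio was 0.81 in H1299 and 2.01 in HCT116, below that of the whole subfamily in both lines. LTR7C locus 1658463 had 0, 15, 37 and 257 counts, with a log2 ratio of 3.48 in HCT116. In both subfamilies the effective number of loci was higher with treatment, at 2.61, 5.30, 2.86 and 4.04 for LTR7C and 1.34, 4.0, 1.29 and 4.32 for LTR7Y.

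Of 37 loci with at least 50 counts in a library, 3 could be tied to a gene through the cells. For these, a numbered feature of the gene table had the same count as the locus in over 50% of the cells where either was found. LTR7C locus 2887581 matched a feature of ZNF114, a zinc finger gene at chr19:48270102-48287608 on the plus strand (GENCODE v29, GRCh38). The locus had 107 counts and the gene feature 105 in treated HCT116, and their counts were equal in 96.2% of such cells. In untreated HCT116 the same gene feature had 97 counts and the locus 1, so the LTR7C count accompanied the gene's count with treatment but not without it. In H1299 the locus had 24 and 55 counts and the gene feature 51 and 53.

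LTR7C locus 2770936 matched a feature of UCA1, a long noncoding RNA first described in urothelial carcinoma, at chr19:15828206-15836326 on the plus strand. The locus had 0, 6, 51 and 205 counts, and its log2 ratio in HCT116 was 2.69 (2.24 to 3.17). The UCA1 feature had 0, 0, 34 and 170 counts, and counts were equal in 60% of such cells with DMSO and 75.8% with DAC+SB939 in HCT116. The third pair, an LTR79 locus with COX7B2, is described with LTR79. A read may have been counted in both tables for these pairs, which no source used here states. For LTR7 loci 168814 and 5293703 the best gene feature reached a correlation over cells of at most 0.312, so neither was tied to a gene.

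The HERVH internal region had 1514, 2857, 1388 and 5071 counts, or 23.5, 45.8, 22.2 and 130.3 CPM. Untreated, the lines had similar levels. With DAC+SB939 the log2 ratio was 0.96 (0.87 to 1.05) in H1299 and 2.56 (2.47 to 2.64) in HCT116, a difference of -1.59 (-1.72 to -1.47), opposite in sign to that of LTR7. With cells under 5000 counts left out, the HCT116 value was 1.98.

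In treated HCT116, 381 of 4327 cells (8.81%) had over 500 CPM of L2a_3end and MER112, 2 other old repeat families. These repeat-rich cells held 4.90% of all counts and 63.6% of HERVH counts (3224 of 5071). HERVH stood at 1689 CPM in them and at 49.9 CPM in the other cells, a ratio of 33.9 (32.0 to 35.9). Such cells numbered 0, 1 and 0 in H1299 DMSO, H1299 DAC+SB939 and HCT116 DMSO. The 2 families were picked after the cells with most HERVH counts had been inspected, so the ratio describes these cells and is no independent finding.

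The repeat-rich cells were shallow. Their median was 4000 counts and 1449 gene features, against 9031 and 2768 in the other treated HCT116 cells. Mitochondrial genes took a median of 24.9% of their counts against 17.9%, and TEs 7.13% against 4.79%. HERVH counts in them were spread over 696 loci, and the leading locus held 4.31%. What these cells are was not tested.

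Other families did not share one pattern in the repeat-rich cells. HERVH48 was 30.7-fold (20.5 to 46.6) and LTR71A 17.0-fold (11.3 to 25.4) higher in them than in the other cells. The ratio was 15.3 for LTR73, 3.16 for LTR79, 3.10 for LTR78B, 1.14 for LTR76 and 0.550 for LTR71B. LTR7 differed by a ratio of 1.24 (1.08 to 1.42), LTR7Y by 1.60 (1.20 to 2.11) and LTR7C by 0.929 (0.630 to 1.32). LTR12C, the TE family with most counts, had a ratio of 0.951, and the young Alu family AluY one of 0.903. The ratios of the 3 HERV-H LTRs were thus far below that of the internal region, as the plot of ratios between the 2 kinds of cells shows.

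**Figure D3:**
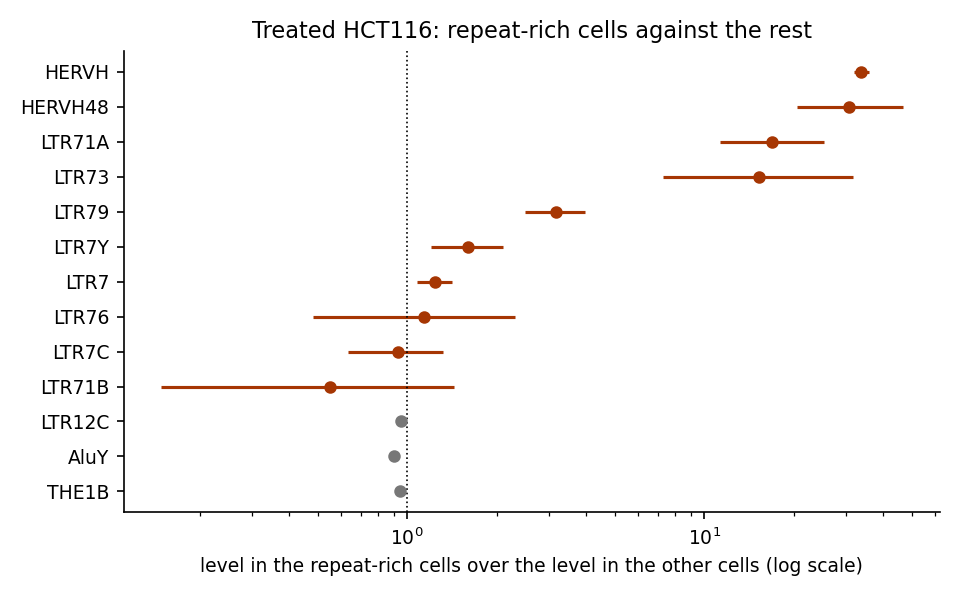
Ratio, on a log scale, of the level in the 381 repeat-rich cells of treated HCT116 to the level in its other cells, with exact 95% intervals for counting error; grey points are families outside HERV-H and its namesakes. HERVH stands at 33.9, while LTR7, LTR7C and LTR12C lie at 1.24, 0.929 and 0.951.

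The HERVH ratios were also computed without the repeat-rich cells. Because these cells were found through their HERVH counts and lie almost all in 1 library, a smaller HERVH ratio in HCT116 without them follows from the choice, and the values are a description. HERVH then had 1514, 2847, 1388 and 1847 counts, and the log2 ratio was 0.96 in H1299 and 1.17 (1.07 to 1.27) in HCT116, a difference of -0.21 (-0.35 to -0.08). With a lower limit of 300 CPM, which marks 550 treated HCT116 cells, the difference was 0.01 (-0.13 to 0.15), and with 1000 CPM and 243 cells it was -0.48 (-0.61 to -0.35). Leaving out cells under 5000 counts, a choice that uses no repeat, gave -1.02 (-1.14 to -0.89). LTR7 hardly moved, with a log2 ratio of -0.22 in HCT116 without the repeat-rich cells.

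**Figure D4:**
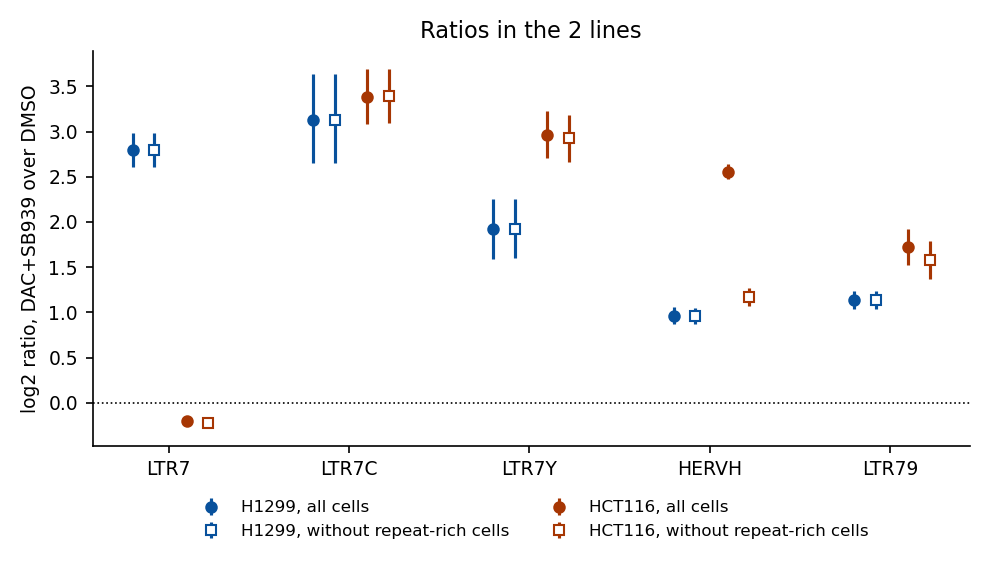
Log2 ratio of DAC+SB939 over DMSO for 5 families in H1299 (blue) and HCT116 (brown), with all cells (filled circles) and without the repeat-rich cells (open squares); bars are exact 95% intervals for counting error. The HCT116 value of HERVH goes from 2.56 to 1.17, beside 0.96 in H1299, while LTR7, LTR7C and LTR7Y stay within their intervals.

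Part of the treated HERVH counts lay in classes listed only with treatment. Over the 10 HERVH classes listed in all 4 libraries, HERVH had 1267, 1616, 1138 and 2813 counts. The log2 ratio was then 0.40 (0.29 to 0.51) in H1299 and 1.99 (1.89 to 2.09) in HCT116. Per class it ran from -0.09 to 1.07 in H1299, with 9 of 10 above 0 and 4 with an interval above 0, and from 0.90 to 2.77 in HCT116, with all 10 intervals above 0. Without the repeat-rich cells the same 10 classes gave 0.39 (0.28 to 0.50) and 0.63 (0.50 to 0.75).

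Unlike LTR7, the internal region had no dominant locus, though 1 internal region may be split over several numbered loci. Joined by neighbouring numbers, as described below, 6 internal loci held 248 of 1388 HERVH counts in untreated HCT116. In untreated H1299, 5 such loci held 192 of 1514. The leading HERVH locus held 4.16%, 3.89%, 7.42% and 4.02% of HERVH counts, and the effective number of loci was 82.5, 155, 56.6 and 116. In untreated HCT116 the leader was locus 168817, with 103 counts, and in treated HCT116 it was locus 6179086, with 204. Locus 6179086 had 0, 18, 2 and 204 counts, and 139 of the 204 were in repeat-rich cells. Its number is next to that of an element of LTR12, another retroviral LTR family, locus 6179087, which had 0, 635, 3 and 1791 counts.

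HERVH locus 1860958 was lower with treatment in H1299. It had 63, 13, 4 and 18 counts, which gave -2.23 (-3.22 to -1.35) on the log2 scale for H1299 and 2.86 for HCT116. Locus 4887612 had 63, 45, 72 and 133 counts, with -0.44 (-1.02 to 0.14) and 1.57. The HCT116 values of both lay largely in repeat-rich cells, which held 14 of 18 and 82 of 133 counts.

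Locus numbers allowed LTRs to be set beside internal regions. An LTR7-group locus lay within 10 numbers of 355 of the 1300 HERVH loci (27.3%), against 359 of the 259922 TE loci outside HERV-H (0.138%). Loci were therefore joined into runs wherever consecutive HERV-H numbers differed by at most 10. This gave 893 runs, of which 169 held both an LTR and an internal locus, 539 only internal loci and 185 only LTRs. That neighbouring numbers mean neighbouring places in the genome is a reading of the numbers that no source used here states.

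The run with most counts spanned loci 168814 to 168823 and had an LTR7 locus at either end. Nearly all its counts were at the first, where the LTR loci had 195, 1274, 3135 and 2609 counts together and the closing LTR7 locus, 168823, had 1, 1, 0 and 4. The 6 internal loci between them had 12, 136, 248 and 248 counts. Their log2 ratio was 3.55 (2.70 to 4.54) in H1299 and 0.69 (0.43 to 0.95) in HCT116, in the same direction as the LTRs, at 2.76 and 0.42. Repeat-rich cells held 48 of the 248 treated HCT116 counts, and the internal value there was 0.45 (0.17 to 0.72) without them. HERVH locus 168817 had 3, 35, 103 and 110 counts and locus 168820 had 46, 66 and 41 outside untreated H1299, where the class with nearly all its counts was not listed. The internal value of 3.55 in H1299 thus partly compares different classes, as these 46 are among its 136 treated counts.

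**Figure D5:**
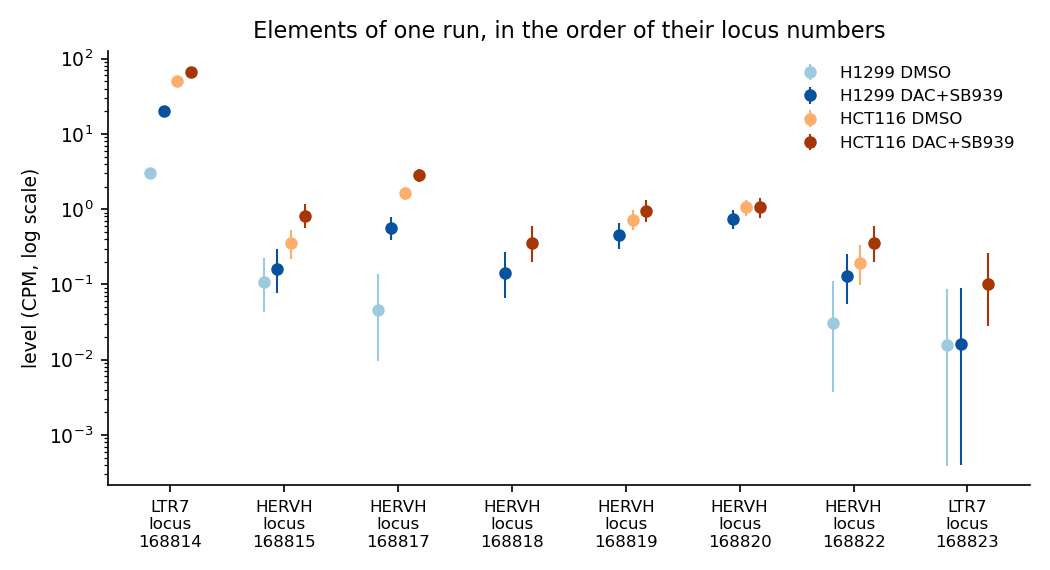
Level in CPM, on a log scale, of the 8 elements in the run from locus 168814 to locus 168823, in the order of their numbers and not to scale, with exact 95% Poisson intervals; an element without a count is not drawn. The first LTR7 locus is the highest in each library, at 3.01, 20.4, 50.1 and 66.9 CPM, and the last LTR7 locus has at most 4 counts.

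The other leading LTR stood almost alone. In the run from 5293703 to 5293711 the LTRs had 32, 60, 3598 and 814 counts, and the internal loci 0, 12, 1 and 5. The run from 1860955 to 1860963 was the reverse, with 3, 4, 2 and 0 LTR counts and 192, 57, 18 and 66 internal counts. Its internal log2 ratio was -1.70 in H1299 and 2.56 in HCT116, where 42 of the 66 treated counts lay in repeat-rich cells and the value without them was 1.17 (0.23 to 2.14). Over all runs, 74.4%, 88.2%, 98.4% and 85.9% of LTR counts lay in runs with an internal locus. These were 340, 2229, 6995 and 4412 counts, of which the 2 leading LTR7 loci held 226, 1333, 6731 and 3415. Most of these LTR counts thus came from those loci. A run was included even where its internal loci had few counts, as with locus 5293703. Of HERVH counts, 36.7%, 36.8%, 40.7% and 36.8% lay in runs with an LTR.

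The share of loci with a strongly higher level was below that over all TE loci in both lines. Among loci that reached 20 counts in the library with the higher level, 28 of 50 (56.0%) were at least 4-fold higher with DAC+SB939 in H1299, where the share over all TE loci was 86.9%. In HCT116 it was 51 of 76 (67.1%), against 91.8%. At least 4-fold lower were 5 loci in H1299 (10.0%, against 2.49%) and 1 in HCT116 (1.32%, against 0.91%). A locus at 0 was set to 3 counts, which is a bound only if its class was truly empty.

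Restricted to classes present in each library of a line, the higher loci were 11 of 30 in H1299 (36.7%, against 80% of all TE loci) and 25 of 42 in HCT116 (59.5%, against 90.6%). The lower loci were 3 in H1299, where the background was 0.932%, and 0 in HCT116, where it was 0.405%. Here too loci with a 0 were rarer, at 5 of 30 in H1299, against 2092 of 3220 TE loci. In HCT116 they were 9 of 42, against 3683 of 6917. Over all classes, HERVH internal loci gave 16 higher and 2 lower of 29 in H1299 (against 86.9% and 2.49% of all TE loci) and 34 higher and 0 lower of 54 in HCT116 (against 91.8% and 0.91%). Without the repeat-rich cells 39 loci of the 13 families had enough counts in HCT116, and 19 were higher (48.7%, against 91.9% of all TE loci in the same cells) and 2 lower (5.13%, against 1.11%). Of these, HERVH accounted for 9 higher and 1 lower of 22.

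At the level of families with at least 100 counts, 3 of 6 were at least 4-fold higher in H1299, where the share over all families was 22.6%, and 5 of 9 in HCT116, where it was 46.7%. The median log2 ratio of these families was 2.21 in H1299, against 0.59 over all families, and 2.40 in HCT116, against 1.91. In HCT116 HERVH was at 1.17 without the repeat-rich cells, and LTR71A had only 56 treated counts left, too few to be counted here. The 13 families together had 3388, 8913, 9113 and 11447 counts, with log2 ratios of 1.44 (1.39 to 1.50) and 1.02 (0.98 to 1.06). All TEs together had 3.96 and 4.12, so that the share of the 13 families in TE counts went from 2.64% to 0.46% in H1299 and from 4.56% to 0.53% in HCT116.

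Locus 168814 had most HERV-H counts in both treated lines, with 23.6% in H1299 and 25.5% in HCT116. Of 78 HERV-H loci that reached 20 counts in treated H1299 or treated HCT116, 11 were at least 4-fold higher in H1299 (14.1%, against 9.7% of all TE loci), 44 at least 4-fold higher in HCT116 (56.4%, against 47.5%) and 23 in between. A locus could enter through 1 library alone, and a 0 was set to 3 counts, so listing fixed some of these calls. HERVH position number 94 (322 counts) was listed only in treated H1299, and 159 (333 counts) only in treated HCT116. The split over shared classes was not computed. With the repeat-rich cells left out, 42 loci reached 20 counts, of which 13 were higher in H1299, 13 higher in HCT116 and 16 in between. These cells were found through their HERVH counts and lie almost all in treated HCT116. A smaller number in HCT116 without them follows from the choice. The share over all TE loci without those cells was not computed, so this split has no background beside it. After the libraries were thinned to the same total, 549 HERVH loci had a count in treated H1299 and 870 in treated HCT116. The 324 shared loci were 59.0% of the former and 37.2% of the latter, and over all TE loci thinned alike these shares were 48.1% and 29.2%. LTR7-group loci with a count numbered 110 and 221, and the 49 shared were 44.5% and 22.2% of them, below the shares over all TE loci. Unthinned, the repeat-rich cells of treated HCT116 held counts of 696 HERVH loci and its other cells of 491, while the other cells of treated H1299, which were deeper, held counts of 699.

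Per cell, values were compared after each cell was thinned to 3300 counts, which left out 402 treated HCT116 cells. An LTR7 count was found in 0.87%, 5.98%, 22.4% and 21.5% of cells. Locus 168814 was found in 0.50%, 4.21%, 11.5% and 16.1%, and locus 5293703 in 0.11%, 0.13%, 12.9% and 5.17%. Without thinning locus 168814 was found in 35.3% and 29.5% of HCT116 cells, and locus 5293703 in 33.6% and 10.7%. Both loci were thus present in a minority of HCT116 cells at this depth.

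A single HCT116 cell held up to 71 counts of locus 5293703 with DMSO and 14 with DAC+SB939. After thinning, 419 untreated HCT116 cells had locus 168814, 471 had locus 5293703 and 86 had both. Locus 5293703 was found in 20.5% of the cells with locus 168814 and in 12.9% of all cells, a correlation of presence (phi) of 0.08. No other feature had a phi above 0.2 with either locus in the libraries examined. At this depth that cannot show the absence of a partner. Even LTR79 locus 4323828 and its COX7B2 feature, described below, reached only 0.296 in H1299 DMSO and 0.246 in H1299 DAC+SB939.

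HERVH counts were found in 6.96%, 12.5%, 6.53% and 17.1% of thinned cells. In treated HCT116 the share was 12.4% (11.3 to 13.5) with the repeat-rich cells left out, which had been found through their HERVH counts. In treated HCT116 the tenth of cells with most HERVH counts held 77.6% of them, and 1 cell held 72. Cells with a HERVH count there had a median of 7283 counts before thinning, against 9501 in cells without one.

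LTR79 had most counts among the families whose names only begin alike, with 1268, 2699, 303 and 621 and log2 ratios of 1.14 and 1.72. Its locus 4323828 held 1096 and 2529 of these in H1299 and 486 in treated HCT116, and its log2 ratio in H1299 was 1.25. In untreated HCT116 its classes were not listed, so no ratio is given. Over the other LTR79 loci, the counts were 172, 170, 303 and 135, with log2 ratios of 0.03 and -0.48. Repeat-rich cells held 87 of the 621 LTR79 counts of treated HCT116. Only 18 of these 87 were at locus 4323828, so the others are among the 135. Of the LTR79 classes of HCT116 none was listed in both its libraries, so that 1.72 and -0.48 compare different classes. Locus 2297809 led in untreated HCT116 with 230 counts, all in a class that was not listed with treatment.

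Locus 4323828 was tied to COX7B2, a gene for a cytochrome c oxidase subunit known mainly from testis, at chr4:46734827-46909235 on the minus strand. The COX7B2 feature numbered 1 had 1067, 2465, 0 and 548 counts. Its counts correlated with those of the locus over cells at 0.98 in H1299 DMSO, 0.97 in H1299 DAC+SB939 and 0.95 in HCT116 DAC+SB939, and were equal in 87.7%, 87.0% and 87.1% of cells with either. The unnumbered COX7B2 feature had 420, 788, 10 and 127 counts. COX7B2 and this LTR79 locus were thus both higher with treatment in H1299 and both found in HCT116 with treatment.

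LTR76 had 44, 241, 23 and 144 counts, with log2 ratios of 2.50 and 3.33. Over the 1 class listed in all libraries these were 0.52 (-0.06 to 1.11) and 0.81 (-0.07 to 1.69), so most of the higher level lay in classes listed only with treatment. Its locus 331187 had 171 and 119 counts with treatment, in classes not listed with DMSO, and is numbered next to an LTR12C locus with 165, 13923, 3871 and 11370 counts. LTR71A had 29, 70, 32 and 105 counts, with log2 ratios of 1.32 and 2.40, and 49 of the 105 lay in repeat-rich cells. In H1299 no LTR71A class was listed in both libraries, and in HCT116 the shared class gave 1.18 (0.49 to 1.88). LTR71B was not listed in untreated H1299 and had 457, 108 and 145 counts elsewhere, with a log2 ratio of 1.11 in HCT116, and of 1.96 over shared classes. In HCT116 its leading locus, 2519325, held 97 counts with DMSO and 58 with DAC+SB939, and the log2 ratio without this locus was 3.67. LTR78 (55 counts) was listed only in untreated H1299, LTR78B (152 and 87 counts) only in HCT116, LTR73 (33 and 34) only with treatment, and HERVH48 had 21, 29 and 106 counts and was not listed in untreated HCT116.

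Genes linked to HERV-H in other settings differed in direction. Of 12 genes reported to carry or use a HERV-H element, 7 were listed and 3 in each line had the 100 counts needed. In H1299 0 of 3 were at least 4-fold higher or lower, against 11% and 0.349% of all genes. In HCT116 1 of 3 was higher and 0 lower, against 9.69% and 3.72%. That 1 was RPL39L, a ribosomal protein paralogue of testis, with 16405, 8403, 0 and 1223 counts, and its 0 may be a numbered feature that was not listed. In HCT116 it passed the filter only through the treated library. HHLA3, a gene named for its HERV-H LTR, had 789, 1236, 1424 and 884 counts, and GSDMB, a gasdermin, 135, 101, 256 and 161. Below the 100 counts, CALB1, a calcium-binding protein, had 6, 78, 8 and 77 counts, with log2 ratios of 3.75 (2.56 to 5.24) and 3.95 (2.90 to 5.22). Over features listed in both libraries of a line its log2 ratios were 3.05 and 2.73. HHLA2, an immune checkpoint ligand, had 1, 9, 0 and 9. CALB1 and HHLA2 thus had more counts with treatment in both lines. The other listed genes below 100 counts did not: ABHD12B had 6, 40, 35 and 14, and LINC-ROR 0, 1, 1 and 0. ESRG, LINC00458, LINC01108, HHLA1 and OC90 were not listed.

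Genes of the pluripotent state, in which HERV-H is transcribed, were partly higher with treatment. In H1299 4 of 6 genes with 100 counts in the library with the higher level were at least 4-fold higher, against 11% of all genes. In HCT116 it was 2 of 4, against 9.69%. Each of these higher genes reached 100 counts in its line only with treatment, so the filter partly fixed the result. A gene at 0, as DPPA4 in H1299 and ZFP42 in HCT116, was set to 3 counts here. ZFP42, a zinc finger gene of embryonic stem cells, had 1, 246, 0 and 398 counts, and DPPA2, a germline and pluripotency gene, 56, 317, 1 and 111. DPPA4, the partner of DPPA2, had 0 and 220 counts in H1299. TFCP2L1, a transcription factor of naive pluripotency, had 6, 239, 691 and 621 counts and so was present in untreated HCT116. KLF4 had 399, 544, 429 and 871 counts, and SOX2 113, 186, 3 and 94. POU5F1 had 2, 91, 0 and 29 counts and NANOG at most 2 in any library. The log2 ratio of POU5F1 in H1299 was 5.56 (3.66 to 8.62), and that of SOX2 in HCT116 5.66 (4.06 to 7.96). Over features listed in both H1299 libraries that of POU5F1 was 4.88.

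Of 6 genes that silence retroviruses, 1 was at least 4-fold higher in each line, against 11% and 9.69% of all genes. At least 4-fold lower were 0 in H1299 and 1 in HCT116, against 0.349% and 3.72%. The higher gene, ZNF534, a zinc finger gene linked to HERV-H repression, had 12, 197, 0 and 110 counts. It too reached 100 counts only with treatment, so the filter partly fixed this call. TRIM28, the corepressor of such zinc finger proteins, had log2 ratios of -0.59 and -0.80, and SETDB1, a histone methyltransferase that works with it, -0.39 and -0.86. DNMT1, the maintenance DNA methyltransferase and a target of DAC, had -1.08 and -0.62. UHRF1, which brings DNMT1 to newly copied DNA, had -1.28 and -2.13. The median log2 ratio over all genes was -0.07 in H1299 and -0.24 in HCT116, so apart from ZNF534 the named silencing genes were below it in both lines.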

How the data were processed

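The authors deposited whole-number counts per feature and cell for genes and for TEs. The submitters' processing notes name CASAVA, STAR, GRCh38 and hg38. Whether counts are UMI counts, and the counting tool and TE annotation, are not stated in any source used. All 15289 cells had at least 500 counts and were assigned to libraries by their names, and no doublet caller was run. Levels are the summed counts of a library over its summed gene and TE counts. Poisson, conditional binomial and Clopper-Pearson intervals (95%) are exact, and differences between lines use a normal approximation. A family absent from a library got no ratio. Named loci were the 5 with most counts in each library and the 3 highest and 3 lowest ratios in each line. Loci tied to genes, individual loci of the runs, and repeat-rich cells were described after their values were seen. The members and gene lists were chosen with earlier results of these data known. Python 3.11.15 with numpy 2.4.6, scipy 1.17.1 and pandas 2.3.3 was used, and the ratio code was tested on simulated data. Alternatives changed the denominator, loci, classes, cells and thresholds.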

Additional observations from a re-analysis of the deposited data

Results flagged for a closer look

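The log2 ratios of these results had opposite signs in the 2 lines under the same treatment. With 1 library per group the differences were not tested. LTR7 had a log2 ratio of DAC+SB939 over DMSO of 2.80 in H1299 and -0.20 in HCT116, and its locus 5293703 had 0.95 and -1.46. HERVH locus 4887612 had -0.44 (-1.02 to 0.14) and 1.57, and the HCT116 value was 0.26 without the repeat-rich cells. ABHD12B, a gene reported to use a HERV-H LTR, had 2.78 and -0.64 (-1.64 to 0.30) with only 6, 40, 35 and 14 counts. HHLA3 had 0.70 and -0.0015 (-0.12 to 0.12), and GSDMB -0.37 (-0.76 to 0.01) and 0.017 (-0.28 to 0.31). The printed intervals include 0, so the opposite sign of these 4 results is within counting error.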

How the results depend on the processing

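Values are log2 ratios unless stated. With TE counts alone as the denominator, which turns a level into a share of TE counts, each family ratio was below 0. The 13 families together gave -2.52 in H1299 and -3.11 in HCT116 (difference 0.59), HERVH -3.00 and -1.57, LTR7 -1.16 and -4.33, LTR7C -0.84 and -0.74, LTR7Y -2.04 and -1.16, LTR71A -2.64 and -1.72, LTR76 -1.46 and -0.79, LTR79 -2.82 and -2.40, and LTR71B -3.01 in HCT116.

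For the 13 families in H1299 the ratio was 1.53 without the leading locus, 1.24 without the leading 3, 1.21 over classes listed in both libraries, 1.33 over classes listed in all 4 and 1.37 as a mean over cells. In HCT116 the same settings gave 1.25, 2.35, 0.70, 0.69 and 1.51. There it was also 1.09 with gene counts as the denominator, 1.11 without the 5% of cells with most counts, 0.83 without cells over 25% mitochondrial counts, 0.95 over HERV-H proper and 1.63 without LTR7 locus 5293703. Without the repeat-rich cells it was 0.51 and without cells under 5000 counts 0.73. The difference between the lines was 0.27, -1.11, 0.52, 0.65 and -0.13 under the first 5 settings, 0.31 without the deepest cells, 0.60 without cells over 25% mitochondrial counts, 0.55 over HERV-H proper, 0.93 without the repeat-rich cells and 0.71 without the shallow ones. Its sign thus depended on 3 loci and on the weighting of cells.

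HERVH in H1299 was 0.40 over classes listed in both libraries and 0.40 over classes in all 4. In HCT116 these were 1.93 and 1.99, the mean over cells was 3.23, and the value was 2.66 without the deepest cells, 2.29 without cells over 25% mitochondrial counts, 1.17 without the repeat-rich cells and 1.98 without cells under 5000 counts. LTR7 in H1299 was 1.97 without the leading 3 loci. In HCT116 LTR7 was -1.07 without the leading locus, 1.62 without the leading 3, 0.52 without locus 5293703, 1.98 without both loci, -0.12 with gene counts as the denominator and -0.12 over either set of classes. It was 0.0032 as a mean over cells, -0.14 without the deepest cells, -0.35 without cells over 25% mitochondrial counts and -0.28 without shallow cells. In HCT116, LTR76 was -0.16 without its leading 3 loci and LTR79 -0.48 without its leading locus. Of 147 alternative values for the other families, 131 kept their direction.

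Loci at least 4-fold higher in H1299 numbered 53 at a minimum of 10 counts, 7 at 100 and 11 over shared classes, against 28. In HCT116 they numbered 106, 11 and 25, against 51, and 19 without the repeat-rich cells and 28 without the shallow ones. Lower loci in H1299 numbered 10, 0 and 3 under the first 3 settings and 11 at a 2-fold threshold, against 5. In HCT116 they numbered 2 at a 2-fold threshold, 0 over shared classes and 2 without the repeat-rich cells, against 1. The shares over all TE loci given above cover the main setting, shared classes and the cells other than repeat-rich ones. For the other settings they were not computed, so those numbers have no background beside them. The share of the 13 families' counts held by LTR79 locus 4323828 in H1299 was 34.2% with DMSO and 35.2% with DAC+SB939 over shared classes, against 32.3% and 28.4%. That of LTR7 locus 168814 in HCT116 was 38.1% and 31.6% over shared classes and 32.1% and 22% without cells over 25% mitochondrial counts, against 34.4% and 22.8%.

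Cells with a count of the 13 families made up 43.6%, 74.3%, 67.6% and 66.7% without thinning and 9.84%, 23.7%, 22.3% and 33.9% without the line's leading locus, against 14.3%, 32.3%, 30.1% and 43.0%. The alternatives on repeat-rich cells, shallow cells, HERV-H proper and locus 5293703 were chosen after seeing the data. No paired analysis was run, as each comparison was made within a line, with 1 library a group. A fit over both lines with line as a block, which would pair the libraries, was not run either. Over classes listed in both libraries LTR7 in H1299, LTR7C in both lines and LTR7Y in H1299 did not change.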
